A study of Mus musculus with 6 samples.

Results

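The genes described are the receptor CSF1R, its ligands and the related colony-stimulating factor receptors: Csf1r, Csf1, Il34, Csf2ra, Csf2rb, Csf2rb2, Csf3r, Il3ra, Flt3 and Kit. They were chosen by name, and all 10 were among the 22180 genes tested, each with 1 probe set that the platform annotation gives to that gene alone. They were measured in macrophages grown from bone marrow of 3 C57BL/KaLwRij mice, with M-CSF for 7 days, and then kept overnight with 5TGM1-luc, a murine myeloma line that carries luciferase. One group of cultures received an anti-mouse CSF1R antibody at 0.5 nM for 3 days, and the other received a control IgG for the same time. RNA was taken after 4 washes meant to remove the myeloma cells, and 3 arrays were run per group. M-CSF is the product of Csf1, so the cells of both groups had been raised on the ligand of the receptor that the antibody binds. The sources used here do not give the dose of the IgG apart from that of the antibody, the mouse behind each array, or whether M-CSF stayed in the medium during treatment. Values are log2 of the probe set intensity, and a difference of 1 on that scale is a doubling. The spread behind each p-value is that between these arrays, and it may be technical.

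CSF1R is a receptor tyrosine kinase of the class III family on monocytes and macrophages, whose binding of CSF1 or IL-34 drives survival, growth and differentiation. Macrophages also take up and degrade CSF1 through it. FLT3 and KIT belong to the same kinase family and are best known on progenitors, dendritic cells and mast cells. The receptors for GM-CSF and IL-3 are pairs of an alpha chain (Csf2ra or Il3ra), which binds the ligand, and a shared beta chain (Csf2rb), which signals through the kinase JAK2. Mice carry a second beta chain gene, Csf2rb2, whose product serves IL-3 only. The G-CSF receptor (Csf3r) works as a pair of like chains and is best known from neutrophils.

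Array medians lay between 4.88 and 4.95, and arrays correlated at 0.992 to 0.993 (Pearson's r over all probe sets) within a group and at 0.984 to 0.985 between groups. With no measured background, the 95th percentile of 1394 odorant and pheromone receptor genes, 4.92, was used as a guide to it. The labelled cell type was checked against its markers: all 9 macrophage markers lay above the guide in both groups. Markers of other cells were also found. Of 9 measured plasma cell markers 8 lay above the guide in at least 1 group, as did 9 of 10 stromal markers. Of all 22180 genes, 13116 did so. The plasma cell markers ran from Ighm (12.74 with the antibody, 12.88 with IgG) down to Tnfrsf17, below the guide. The stromal markers Thy1 and Pdgfra lay near the guide. How much of these signals came from other cells was not tested. Summed intensity of the plasma cell markers was 16024 to 17551 on the antibody arrays and 20163 to 20724 on the IgG arrays. That of the stromal markers was 1132 to 1165 against 2044 to 2113, and that of the macrophage markers 31342 to 32802 against 17838 to 18416. These sums are carried by the brightest genes of each list. In such bulk samples, fewer cells of a type and less RNA per cell cannot be told apart.

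With the antibody, 5 of the 10 genes rose, 1 fell and 4 did not pass the test (limma, Benjamini-Hochberg adjusted p under 0.05 over all 22180 genes). Over all genes tested, 28.5% passed, 12.5% as higher and 16% as lower. The receptor gene Csf1r rose 2.17-fold, and the 4 others that rose were Csf3r, Csf2rb2, Il3ra and Csf2rb. Csf1, the ligand gene, fell. The median change of the 10 genes was 0.47, and that of all genes −0.02. The 3 arrays of each group were wholly apart for 7 of the 10 genes, against 39.3% of all genes. The antibody arrays lay above in 6 of them (16.6% of all genes) and below in 1 (22.7%). Csf1r and Csf3r rose at least 2-fold, which 2.89% of all genes did. Neither group had Il34, Flt3 or Kit above the guide, and at such a signal a change cannot be read.

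**Figure D1:**
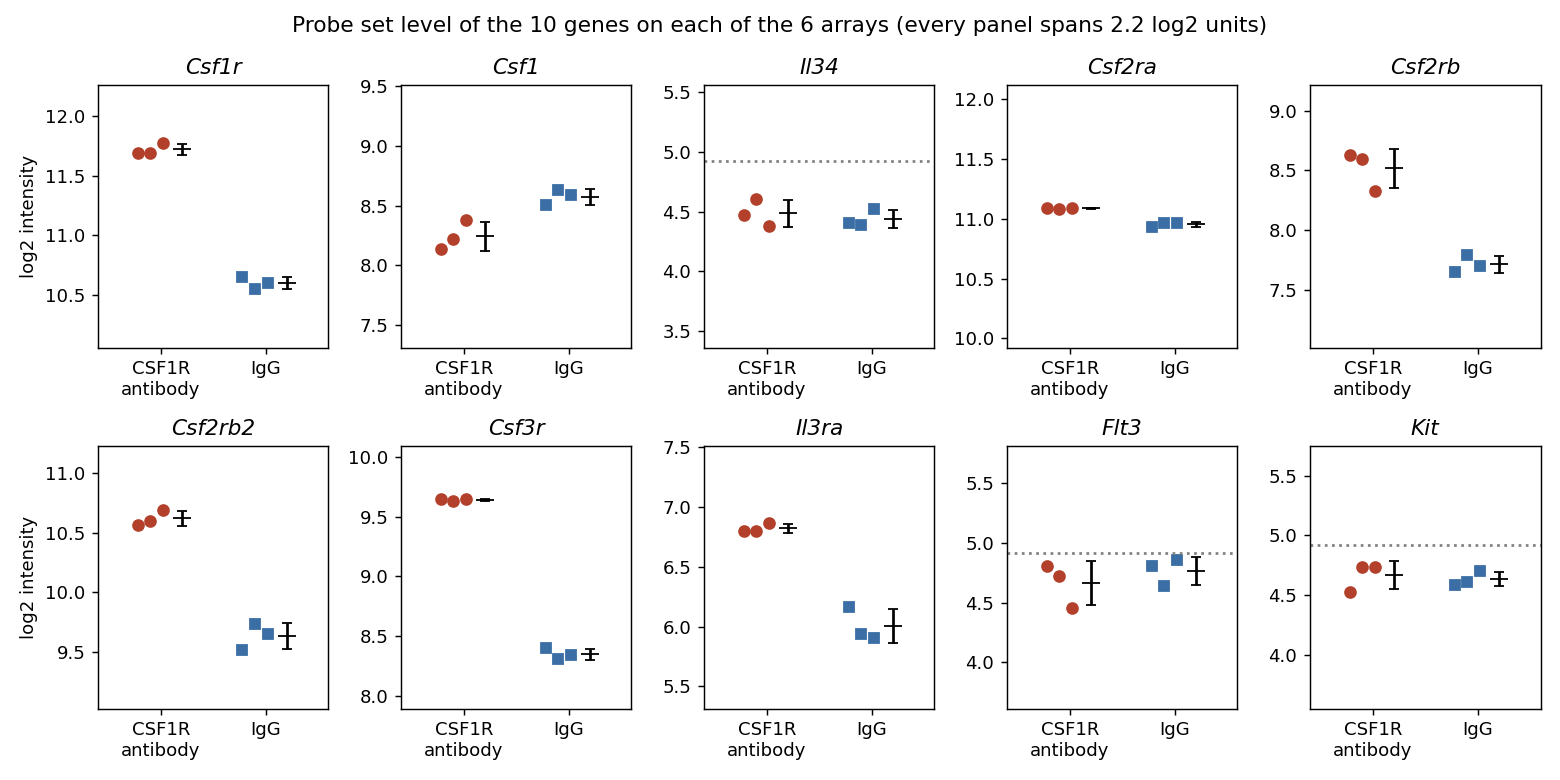
Log2 intensity of each gene's probe set on the 3 CSF1R antibody arrays (circles) and the 3 IgG arrays (squares), with the mean and SD of each group beside the points and a dotted line at the background guide of 4.92 where it falls in the panel. The groups are apart for 7 genes, with the antibody arrays above in 6 and below in Csf1, and overlap for Il34, Flt3 and Kit.

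Csf1r stood at 11.69, 11.69 and 11.77 on the antibody arrays, against 10.65, 10.55 and 10.60 on the IgG arrays. All antibody values lay above all IgG values, with a gap of 1.04 between the groups. The rise was 1.12 (SE 0.05; 95% interval 1.00 to 1.24; limma adjusted p = 2.0e-05), which put it at rank 496 of all genes by size of rise. The antibody binds the protein, so the transcript does not check the labels. Macrophage markers rose on the same arrays: all 9 passed, by 0.33 to 1.74, with a median of 1.24. Of these, 5 rose by more than Csf1r and 4 by less. Of 4 measured monocyte markers 2 rose and 0 fell, with a summed intensity of 610 to 676 on the antibody arrays and 221 to 230 on the IgG arrays. The 2 were F13a1, for a subunit of coagulation factor XIII (8.81 against 6.28), and Ccr2, a chemokine receptor gene (6.20 against 5.56). The sum moved mainly with F13a1. Ly6c2 (6.49 against 6.26, limma adjusted p = 0.40) did not pass, nor did Plac8, below the guide. Beside the counts of both lists, 20.1% of genes above the guide rose and 26% fell (12.5% and 16% of all genes). The part of either list in the rise of Csf1r was not tested. Among the macrophage markers, Cd14, the lipopolysaccharide co-receptor, changed most, and Cd68, a lysosomal glycoprotein, changed least. When each array was centred on the mean of these 9 markers, a setting chosen after the data were seen, the difference in Csf1r was 0.01. That setting moves the median of all genes to −1.13, and it assumes that the markers stand for the macrophage RNA on an array, although each of them can itself change per cell.

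Csf1, which encodes the ligand CSF1, stood at 8.14, 8.22 and 8.38 on the antibody arrays, against 8.50, 8.63 and 8.59 on the IgG arrays. The groups did not overlap, but the gap between them was only 0.12. It fell by 0.33 (SE 0.07; 95% interval −0.51 to −0.15; limma adjusted p = 0.017), to 79.6% of the IgG signal. The call was lost with cyclic loess scaling (a difference of −0.22, adjusted p = 0.052). Without antibody replicate 1 (adjusted p = 0.053), antibody replicate 2 (0.060), IgG replicate 2 (0.064) or IgG replicate 3 (0.061) it was also lost. CSF1 is made by stromal cells among others. The stromal markers had a median change of −0.35, led by Acta2 (−1.20) and Postn (−1.08), with 6 of 10 lower and 1 higher, and the higher one was Dcn, below the guide. The plasma cell markers had a median of −0.30, with 6 of 9 lower and 0 higher. Of all genes tested 16% were lower, and of genes above the guide 26%. The part of these cells in the fall of Csf1 was not tested.

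Il34 encodes the second ligand of CSF1R, known from skin and brain. Its values were 4.47, 4.61 and 4.38 on the antibody arrays, against 4.40, 4.38 and 4.52 on the IgG arrays. The groups overlapped, and the difference was 0.05 (95% interval −0.13 to 0.23; limma adjusted p = 0.70).

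Of the 5 type I cytokine receptor genes, 4 rose, and the exception was the alpha chain of the GM-CSF receptor. Csf3r, the G-CSF receptor gene, had 9.64, 9.63 and 9.64 on the antibody arrays, against 8.40, 8.31 and 8.34 on the IgG arrays. Its rise of 1.29 (SE 0.05; 95% interval 1.18 to 1.40; limma adjusted p = 1.1e-05) was 2.45-fold and ranked 319 among all genes. The antibody arrays were nearly alike, and the gap between the groups was 1.23. Neutrophil markers did not move with it as a list. Of 10, 7 lay below the guide, among them S100a8, S100a9, Elane and Ly6g, and 1 rose. That one was Mmp8, a collagenase gene, at 9.65 with the antibody and 8.42 with IgG. The summed intensity of the list, 931 to 1061 on the antibody arrays and 518 to 538 on the IgG arrays, moved with that gene.

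Csf2rb2, the beta chain gene specific to IL-3 in mice, had 10.57, 10.60 and 10.69 on the antibody arrays, against 9.52, 9.74 and 9.65 on the IgG arrays. It rose by 0.98 (SE 0.07; 95% interval 0.81 to 1.15; limma adjusted p = 1.3e-04), or 1.98-fold. Csf2rb, the beta chain gene shared by the receptors for GM-CSF, IL-3 and IL-5, had 8.63, 8.59 and 8.33 on the antibody arrays, against 7.65, 7.79 and 7.70 on the IgG arrays. It rose by 0.81 (SE 0.09; 95% interval 0.59 to 1.02; limma adjusted p = 8.6e-04), or 1.75-fold. In both genes every antibody array lay above every IgG array, and for Csf2rb antibody replicate 3 was the lowest of its group. The genes are neighbours on chromosome 15 with 0 protein-coding genes between them in RefSeq, and they are closely related copies. Whether RNA of one binds the probes of the other was not tested.

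Il3ra, the alpha chain gene of the IL-3 receptor, had 6.80, 6.80 and 6.87 on the antibody arrays, against 6.16, 5.94 and 5.91 on the IgG arrays. It rose by 0.82 (SE 0.08; 95% interval 0.63 to 1.01; limma adjusted p = 4.1e-04), or 1.77-fold. All antibody values lay above those of IgG, and IgG replicate 1 was the highest of its group. The alpha chain and both beta chains of the IL-3 receptor were thus all higher with the antibody. The macrophage marker median of 1.24 stands beside these rises too, and its part in them was not tested.

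Csf2ra, the alpha chain gene of the GM-CSF receptor, had 11.09, 11.09 and 11.09 on the antibody arrays, against 10.93, 10.97 and 10.96 on the IgG arrays. The groups did not overlap, as was so for 39.3% of all genes, but the gap was 0.12 and the gene did not pass. Its difference was 0.13 (SE 0.04; limma adjusted p = 0.058). The 95% interval of 0.03 to 0.24 is not adjusted over genes, and its upper end lies below the lower end for each of the 4 other type I receptor genes. Csf2ra passed under 6 alternative settings, among them an intensity trend (adjusted p = 0.0050) and cyclic loess (a difference of 0.25, adjusted p = 0.0075).

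**Figure D2:**
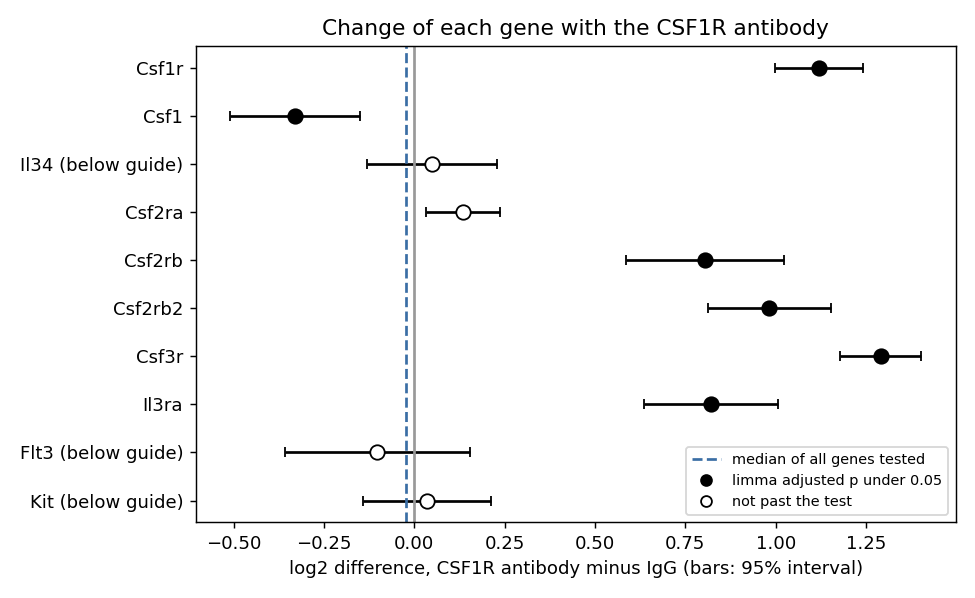
Log2 difference of each gene, CSF1R antibody minus IgG, with limma's 95% interval as bars. Filled points passed the adjusted test and the dashed line marks the median of all genes, −0.02. Csf1r, Csf2rb, Csf2rb2, Csf3r and Il3ra lie to the right between 0.81 and 1.29, and Csf1 to the left at −0.33.

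Flt3 and Kit, the kinase receptor genes for the ligands FLT3L and stem cell factor, stayed near background. Flt3 had 4.81, 4.73 and 4.46 on the antibody arrays, against 4.81, 4.64 and 4.85 on the IgG arrays (difference −0.10, 95% interval −0.36 to 0.15; limma adjusted p = 0.56). Kit had 4.53, 4.74 and 4.74 on the antibody arrays, against 4.59, 4.61 and 4.70 on the IgG arrays (difference 0.04, 95% interval −0.14 to 0.21; limma adjusted p = 0.78). The groups overlapped for both. Of 8 mast cell markers, cells known for KIT, all 8 lay below the guide, with a summed intensity of 86.6 to 92.8 on the antibody arrays and 89.7 to 92.0 on the IgG arrays. Of 5 progenitor markers 3 lay below the guide, and of 6 dendritic cell markers 2, with 1 gene higher in each list (Meis1 and Batf3).

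Exactly equal values on a pair of arrays of 1 group were found for 5 of the 10 genes, with no tolerance. For Csf1r and Il3ra antibody replicates 1 and 2 were equal, for Csf3r and Csf2ra antibody replicates 1 and 3, and for Kit antibody replicates 2 and 3. Over all genes, 26.3% had such a pair in at least 1 group. An SD over equal values understates the spread between cultures. The cause was not tested.

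Pairs of genes were also compared within arrays, where a shift of a whole array cancels. The log2 difference of Csf1r minus Csf1 was 3.55, 3.47 and 3.39 on the antibody arrays, against 2.15, 1.92 and 2.01 on the IgG arrays. The difference between the groups was 1.45. Csf3r minus Csf1r was higher by 0.17 on the antibody arrays, at −2.05, −2.07 and −2.13 against −2.25, −2.24 and −2.26 on the IgG arrays. Csf2ra minus Csf2rb was lower by 0.67, at 2.46, 2.49 and 2.76 against 3.28, 3.18 and 3.27. In these 3 pairs the groups did not overlap, which gives p = 0.10 in a two-sided exact permutation test of 3 against 3, the smallest it allows, and 0.13 adjusted over the 4 pairs compared, so none passed. For Csf2rb2 minus Csf2rb the groups overlapped (1.94, 2.01 and 2.36 against 1.87, 1.95 and 1.95; difference 0.18; exact permutation p = 0.30). That difference was 0.049 without antibody replicate 3 and 0.26 without antibody replicate 1.

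The promoters of Csf3r, Il3ra and Csf2rb2, genes that rose together, and of Csf1, which fell, are shown. They were searched for AGGAAG, a longer form of the core bound by ETS factors. The macrophage factor PU.1, the product of Spi1, is one of these. RefSeq promoter entries (GRCm38.p6) matched 7 of the 10 genes, while Csf1r, Il34 and Csf2rb are named only. Only the first entry of a gene was used, so any other start was not searched. The windows hold the 250 bases before the start, 5′ to 3′ on the gene's strand. They are chr4:126024409-126024658 (+) for Csf3r, chr14:14346245-14346494 (+) for Il3ra, chr15:78305722-78305971 (−) for Csf2rb2 and chr3:107760470-107760719 (−) for Csf1. Capitals mark the letters AGGAAG on either strand.
Csf3r: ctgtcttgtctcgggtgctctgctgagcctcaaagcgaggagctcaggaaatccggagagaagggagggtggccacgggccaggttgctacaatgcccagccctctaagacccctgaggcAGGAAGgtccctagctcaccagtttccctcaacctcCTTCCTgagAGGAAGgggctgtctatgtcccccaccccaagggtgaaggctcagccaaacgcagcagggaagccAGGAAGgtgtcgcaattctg
Il3ra: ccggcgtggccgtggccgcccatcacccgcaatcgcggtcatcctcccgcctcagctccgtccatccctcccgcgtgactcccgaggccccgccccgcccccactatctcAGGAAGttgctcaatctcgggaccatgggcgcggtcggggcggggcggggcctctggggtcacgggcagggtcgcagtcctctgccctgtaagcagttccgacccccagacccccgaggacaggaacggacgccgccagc
Csf2rb2: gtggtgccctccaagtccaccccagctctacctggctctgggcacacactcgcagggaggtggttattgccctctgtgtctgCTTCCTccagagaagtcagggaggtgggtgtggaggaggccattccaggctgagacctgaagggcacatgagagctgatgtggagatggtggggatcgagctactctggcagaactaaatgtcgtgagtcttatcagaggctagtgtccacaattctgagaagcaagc
Csf1: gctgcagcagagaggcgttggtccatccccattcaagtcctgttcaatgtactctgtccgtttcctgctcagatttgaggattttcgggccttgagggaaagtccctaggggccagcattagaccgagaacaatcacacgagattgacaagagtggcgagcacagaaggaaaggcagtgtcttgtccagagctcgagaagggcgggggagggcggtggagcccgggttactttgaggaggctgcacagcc

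AGGAAG was found 4 times before Csf3r, between 130 and 20 bases from the start. It was found 1 time before Il3ra (140 bases), 1 time before Csf2rb2 (168 bases) and 0 times before Csf1. Shorter forms of the core, such as GGAA, were not counted, and the Csf1 window shown does hold GGAA. Csf2ra had 2 matches, Kit had 1 and Flt3 had 0. Of all 32851 RefSeq windows of this length, 29.5% hold AGGAAG, so a single match is common. The letters GAAANNGAA, a core of interferon response elements, were on neither strand of the 7 windows and in 7.13% of all. The letters TTCNNNGAA, a STAT core, were in 7.02% of all windows and, among the 7, in that of Csf2rb2 alone, 15 bases before the start. Matches of different motifs were counted separately even where they could overlap. A match describes letters and is no evidence of binding, and a missing match says only that the letters are not in this window.

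Of 15 measured transcription factor genes listed as acting on Csf1r, 11 rose, 1 fell and 3 did not pass, with a median change of 0.51. The list was drawn up by hand, and action on Csf1r was not checked for each factor. All 15 lay above the guide, where 20.1% of genes rose and 26% fell. The largest rises were those of Tfec, a factor related to MITF (8.91 ± 0.03 against 6.95 ± 0.12; SD, n = 3), Irf8, a factor of monocyte development (9.41 against 7.68), and Maf, a factor of mature macrophages (10.38 ± 0.02 against 8.71 ± 0.11). The limma differences were 1.95 (SE 0.07), 1.73 (SE 0.05) and 1.67 (SE 0.07). Irf8 and Cebpa were each exactly equal on the 3 antibody arrays, as were the signalling genes Pik3cd and Fyn, so the spread of these genes is understated. Picked out after their values were seen, Spi1 rose by 0.88 (SE 0.06) and Runx1 by 1.03 (SE 0.06), and Ets2 fell by 0.60 (SE 0.05). Beside these stands the macrophage marker median of 1.24, and its part in the rises was not tested.

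Among 15 measured genes of signalling next to CSF1R, 8 rose, 2 fell and 5 did not pass, with a median of 0.32. These 15 also lay above the guide, where 46.1% of genes passed, 20.1% as higher and 26% as lower. Fes, a cytoplasmic tyrosine kinase, rose by 1.33 (SE 0.07), Pik3cd, a catalytic subunit of PI 3-kinase, by 1.20 (SE 0.07) and Gab2, a docking protein, by 1.14 (SE 0.05). The genes that fell, named after their values were seen, were Fyn, a kinase of the Src family (−0.39, SE 0.04), and Sos1, an exchange factor for Ras (−0.21, SE 0.05). Of 14 genes of receptor attenuation, 6 rose, 0 fell and 8 did not pass, with a median of 0.11. The number called in either direction is near the 46.1% of genes above the guide that passed, and so is no result about the list. By direction, 6 rose and 0 fell, beside 20.1% higher and 26% lower among genes above the guide. What lay behind that split was not tested. Cblb, a ubiquitin ligase, rose by 1.01 (SE 0.06), its partner Sh3kbp1 by 0.70 (SE 0.05) and Ptpn6, which encodes the phosphatase SHP-1, by 0.56 (SE 0.05). Adam17, whose product sheds CSF1R from the cell surface, was at 10.11 with the antibody and 10.08 with IgG (limma adjusted p = 0.71), and was picked out after its values were seen.

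Of 13 measured JAK-STAT genes that serve the beta chain and G-CSF receptors, 3 rose, 3 fell and 7 did not pass, with a median of 0.00. That is near the background of genes above the guide, 46.1% of which passed, and so is no result about the list. The kinase gene Jak1 rose by 1.33 (SE 0.04), the feedback inhibitor gene Socs3 by 1.26 (SE 0.08) and Stat3 by 0.56 (SE 0.05). The 3 that fell, named after their values were seen, were the kinase genes Pim2 (−0.54, SE 0.06) and Pim1 (−0.33, SE 0.05) and the phosphatase gene Ptpn11 (−0.29, SE 0.05). Cish, a target of STAT5, was at 5.83 with the antibody and 5.82 with IgG (limma adjusted p = 0.91), also picked out after its values were seen, and was exactly equal on the 3 IgG arrays.

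Of the ligands for the other receptors, 5 were measured, and Csf2, Csf3, Il3 and Il5 lay below the guide in both groups. Kitl, the gene of stem cell factor, had 6.84 ± 0.15 with the antibody and 5.35 ± 0.20 with IgG (SD, n = 3), a rise of 1.50 (SE 0.12; limma adjusted p = 2.0e-04). Its receptor gene Kit was below the guide on the same arrays. Of 6 related receptors of blood cells, 4 rose and 1 fell, with a median of 0.40. Il4ra, the IL-4 receptor chain, rose by 1.60 (SE 0.06), and Il7r, the IL-7 receptor chain, by 0.82 (SE 0.06). Il5ra, the alpha chain of the IL-5 receptor, which pairs with the product of Csf2rb, fell by 0.52 (SE 0.04), to 10.49 with the antibody against 11.00 with IgG. The plasma cell marker median of −0.30 stands beside it, and its part was not tested.

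Counts in the other lists are to be read against the same background, with 20.1% of genes above the guide higher and 26% lower. The macrophage markers, all 9 of them higher, rose on the same arrays as those genes of the lists that rose, and their part was not tested.

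**Figure D3:**
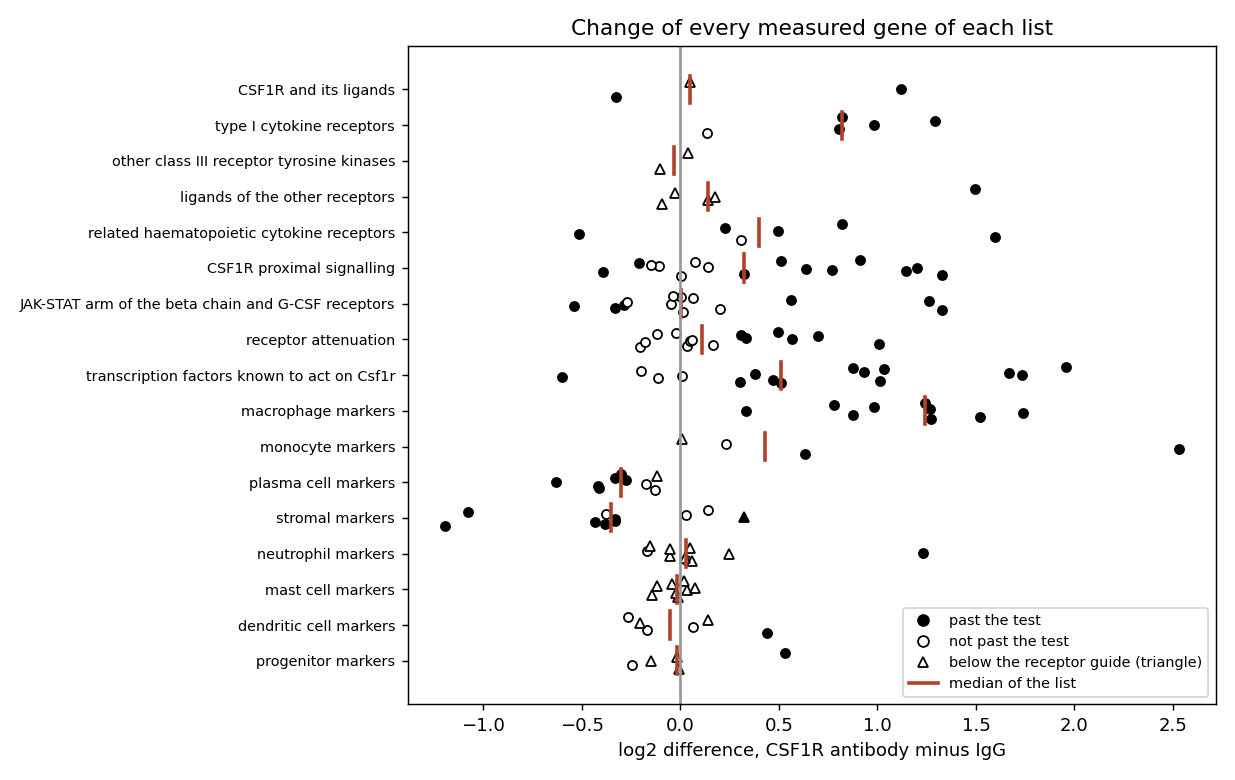
Log2 difference, CSF1R antibody minus IgG, of every measured gene of each list, with filled symbols for genes past the adjusted test, triangles for genes below the background guide and a bar at the list's median. The 9 macrophage markers lie between 0.33 and 1.74, while plasma cell and stromal markers have medians of −0.30 and −0.35.

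Genes whose pattern over the 6 arrays was most like that of Csf1r, Csf3r or Csf1 were found by the root mean square distance between centred log2 values, among 11764 genes above the guide. For Csf1r, the nearest 5 were Sh3pxd2b (0.021), Ctns (0.025), Osbpl11 (0.027), Prkch (0.028) and Tnfrsf1b (0.030), with rises of 1.06 to 1.15. Sh3pxd2b encodes an adaptor of podosomes, Ctns the lysosomal cystine exporter and Tnfrsf1b a receptor for TNF. For Csf3r they were Sumf1 (0.013), which encodes the activator of sulfatases, Ndst2 (0.014), for an enzyme of heparan sulfate and heparin, and Nrp1 (0.022), the neuropilin gene. For Csf1 they were Lemd3 (0.018), Pwwp3a (0.023) and Zfp280b (0.024), which fell by 0.31 to 0.33. As there are only 2 groups, such a likeness mainly says that the change was of the same size.

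**Figure D4:**
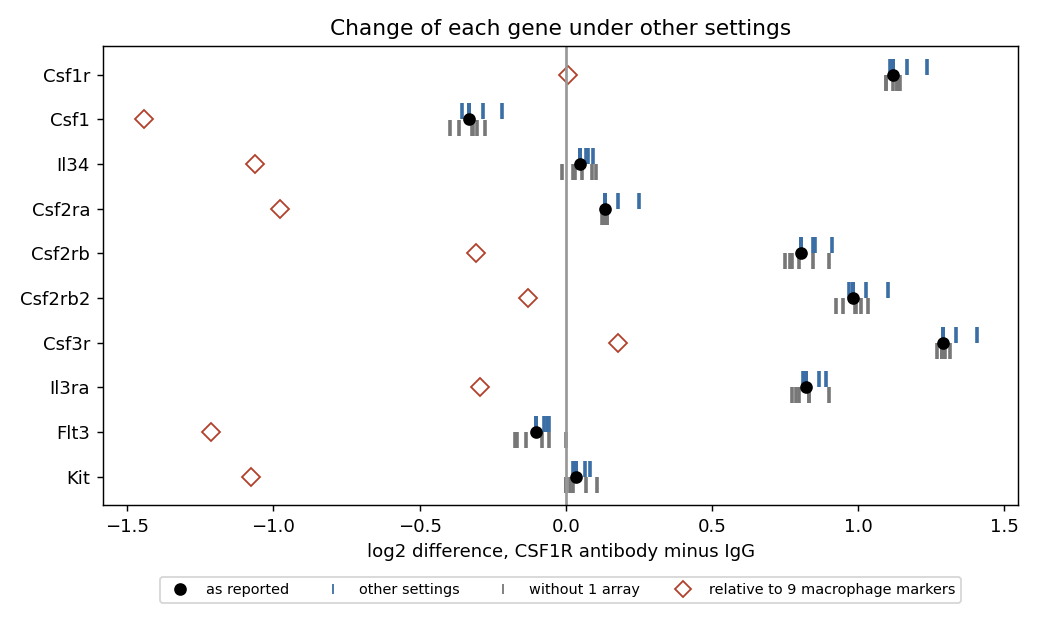
Log2 difference of each gene, CSF1R antibody minus IgG, as reported (black points), under other settings (ticks above), without 1 array in turn (ticks below) and after centring each array on 9 macrophage markers (open diamonds). The other settings mostly stay near each reported value, but cyclic loess moves Csf1 from −0.33 to −0.22 and Csf2ra from 0.13 to 0.25. The marker centring puts Csf1r at 0.01, Csf3r at 0.18 and Csf1 at −1.44.

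Relative to the 9 macrophage markers, 1 of the 10 genes passed limma's threshold as higher with the antibody and 7 as lower, in place of 5 and 1. Over all genes the same setting gave 345 higher and 21445 lower, or 98.2% called, so this count shows nothing particular to the 10 genes. The differences were 0.18 for Csf3r, −0.13 for Csf2rb2, −0.29 for Il3ra, −0.31 for Csf2rb, −0.98 for Csf2ra and −1.44 for Csf1. They are given without p-values, as the markers themselves changed by 0.33 to 1.74 and no SE includes that spread. For the same reason the calls counted under this setting are not read as results. The values of Il34, Flt3 and Kit under this setting, −1.06 to −1.21, follow from subtracting the marker change of 1.11 from a background signal.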

How the data were processed

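Expression was measured on 6 GeneChip arrays for mouse whole transcripts, 3 per group. The deposited table holds a linear intensity per probe set and array. RMA and limma appear among the tools of the submitters' processing notes, without version or role. RMA commonly equalises the distributions of arrays, so a shift of most genes one way would not show. No source used here gives the genome build or annotation. Values were taken as log2, with no filter on low signal.

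Of 41345 probe sets, 23521 had 1 gene symbol in the platform annotation, 1814 had several and 16010 had none. Each of 22180 genes was read from its probe set of highest mean. The groups were fitted in limma 3.58.1 under R 4.3.3, using lmFit and eBayes, and adjusted by Benjamini-Hochberg over all genes at a threshold of 0.05. The fit was tested on simulated data with independent noise and few changed genes. These data differ in the share of genes called and in their equal values, so that test does not measure the error rate here. A level with ± is a mean and SD over 3 arrays, and an SE is moderated by limma. Plots were drawn with matplotlib 3.10.9.

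The 10 genes and the lists were chosen with earlier results of these data known. All 10 genes are named. From each list of related genes up to 3 past the test with the largest change are named, or the 1 with the smallest p, besides those said to be picked later. Marker genes named alone were picked out after their values were seen. Some listed genes were not analysed here. Alternatives were other variance models, array weights, scalings, filters, probe set rules and thresholds, a block for the replicate number, and each array left out in turn. A centring on macrophage markers was added later. No pairing by replicate number was seen, as deviations of same-numbered arrays correlated at −0.05 to 0.03. Whether same-numbered arrays share a mouse is not known. The number of arrays limits the precision.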

Additional observations from a re-analysis of the deposited data

How the results depend on the processing

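The rises of Csf1r, Csf2rb, Csf2rb2, Csf3r and Il3ra kept their direction and their call under the 17 other settings run for each, marker centring aside, with adjusted p of at most 0.0070. Csf1 was no longer past the threshold with cyclic loess (−0.22), and ranged from −0.40 to −0.28 when 1 array was left out. The count of genes that fell was then 0, as it was at a threshold of 0.01 and without any of 4 arrays (0 to 1 over the arrays left out). Csf2ra passed with an intensity trend (0.13), arrays centred on their medians (0.18), cyclic loess (0.25) and only genes above the 25th percentile, the 50th percentile or the receptor guide tested (0.13 in each). The cause was not tested. Below the guide, signs turned when 1 array was left out for Il34 (−0.013 to 0.10) and Flt3 (−0.17 to 0.00098). The 4 comparisons within arrays kept their direction under the 9 alternatives run for each, but Csf2rb2 minus Csf2rb ranged from 0.049 to 0.26 when 1 array was left out. With the replicate block, which the arrays' deviations give no ground for, 2569 genes rose and 2980 fell in place of 2766 and 3548, and no call among the 10 genes changed (Csf1 −0.33, adjusted p = 0.023).

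Centring on macrophage markers, chosen after the data were seen, subtracts 1.11 from the difference of every gene. Csf1r was then at 0.0077 and no longer past the threshold. Flt3, below the guide, was at −1.21 and past it. Il34 (−1.06), Csf2ra (−0.98), Csf2rb (−0.31), Csf2rb2 (−0.13), Il3ra (−0.29) and Kit (−1.08) turned negative, leaving 1 gene higher and 7 lower, against 345 higher and 21445 lower over all genes. The shift follows from the construction. The SEs behind these calls leave out the spread between the markers, so the calls are not read as results. Median centring gave 3071 higher and 2766 lower genes over the whole set, and cyclic loess 3411 and 2346, so that the split of calls depends on the scaling.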
